A study of Drosophila melanogaster with 6 samples.

Results

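The genes described here are 9 heat shock genes of Drosophila melanogaster, taken by gene symbol from a deposited expression table of 15135 features. They are the 6 Hsp70 copies (Hsp70Aa, Hsp70Ab, Hsp70Ba, Hsp70Bb, Hsp70Bbb and Hsp70Bc), the Hsp70 relative Hsp68, the Hsp90 gene Hsp83 and the Hsp40 gene DnaJ-1. Each of the 9 symbols was found once. PolyA RNA of whole embryos at about stage 14 had been sequenced in 3 libraries of spo mutants and 3 libraries of wild type, to find genes that act downstream of the steroid hormone ecdysone. The spo gene encodes an enzyme of ecdysone synthesis. The labels give neither the spo allele nor the stocks behind the genotypes. The mutation, the stock and any difference in embryo handling or age therefore cannot be told apart. In whole embryos, fewer cells of a type and less RNA per cell cannot be told apart either.

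Heat shock proteins of the Hsp70 class bind unfolded stretches of other proteins, and J-domain proteins of the Hsp40 class hand them their substrates and speed up their ATP cycle. The Hsp70 copies of the fly sit in a pair of clusters on chromosome arm 3R, named Hsp70A and Hsp70B, and are known for very low expression without heat and very strong induction by heat through the transcription factor Hsf. Hsp83 is expressed without heat as well, is loaded into the egg by the mother, and the Hsp90 machinery is known to help the fly ecdysone receptor bind DNA.

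Expression is given in TPM, which corrects read numbers for the length of the gene and for the depth of the library, so levels of different genes can be compared. The spo gene itself stood at 0.61, 0.47 and 0.306 TPM in spo libraries 1, 2 and 3, against 0.944, 0.726 and 0.696 TPM in wild-type libraries 1, 2 and 3. Those values rest on 33, 31 and 24 rebuilt reads in spo libraries and 59, 43 and 55 in wild-type libraries. Since spo lay under the filter of 1 TPM, it was tested in a separate limma fit of all 15135 features with no filter. The log2 difference was -0.29 (limma adjusted p = 0.0434 over the 15135), and the call was lost when any 1 library other than spo replicate 1 was left out (adjusted p 0.081 to 0.136). Reads were rebuilt from the TPM values, and library totals ran from 50235571 to 73718159. All 12 embryonic tissue markers, among them elav of neurons, repo of glia and Mef2 of muscle, exceeded 1 TPM in every library. Of the 12 markers, 6 fell and 2 rose in spo, with a median log2 difference of -0.11. Over all features tested, 27.9% fell and 33.9% rose. The 12 markers summed to between 658 and 700.0 TPM in spo libraries and between 764 and 780.3 TPM in wild-type libraries. Mhc, the muscle myosin heavy chain, fell to 9.93 ± 0.443 TPM in spo, against 26 ± 0.687 TPM in wild type (SD, n = 3 each; log2 difference -1.30, limma adjusted p = 2.27e-06). Mef2 rose to 158 ± 1.68 TPM, against 145 ± 0.839 TPM (adjusted p = 0.00109), and elav fell to 180.2 ± 19.5 TPM, against 236 ± 8.1 TPM (adjusted p = 0.00252). The part of these tissue differences in the levels of the heat shock genes was not tested. Of 8 matched adult and ovary markers, 2 stayed under 0.1 TPM throughout and 2, Yp3 and Cp18, exceeded 1 TPM in every library. Yp3 stood at 1.11 TPM in spo and 1.64 TPM in wild type (limma adjusted p = 0.00758). Cp18 stood at 1.91 TPM in spo and 2.73 TPM in wild type (limma adjusted p = 0.00578). The 8 markers together reached at most 4.4 TPM in spo and 6.02 TPM in wild type.

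Of the 9 genes, 5 were lower and 1 was higher in spo embryos, and 3 did not pass the test (limma on log2(TPM + 1), adjusted p below 0.05 over 10019 features). Across all features tested, 61.7% differed by the same rule, 27.9% lower and 33.9% higher. The 9 genes passed the filter of at least 1 TPM in 3 libraries, though the Hsp70A pair did so only because the 3 spo libraries and wild-type library 2 reached 1 TPM. The median log2 difference was -0.08 over the 9 genes and 0.02 over all features tested. The Hsp70A pair, whose values keep a fixed proportion, enters this median and the 3 that did not pass as separate genes. The falls differed in size among the genes: Hsp70Bb and Hsp70Ba fell steeply, Hsp83 and Hsp68 moderately and DnaJ-1 slightly.

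Ordered by level, the genes in spo embryos were Hsp83, DnaJ-1, Hsp68, Hsp70Bb and Hsp70Bc, then Hsp70Bbb and Hsp70Ba, then the Hsp70A pair. In wild type the order was the same, except that Hsp70Ba stood clear above Hsp70Bbb. Neighbours in this order did not overlap across the 3 libraries of a genotype, with the exceptions of Hsp70Bbb and Hsp70Ba in spo and of the Hsp70A pair in both genotypes. Hsp83 was the 152nd highest of 15135 features by mean TPM in spo and the 132nd in wild type. Hsp70Bb was 3624th in spo and 1040th in wild type, and Hsp70Aa was 9737th in spo and 9894th in wild type.

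**Figure D1:**
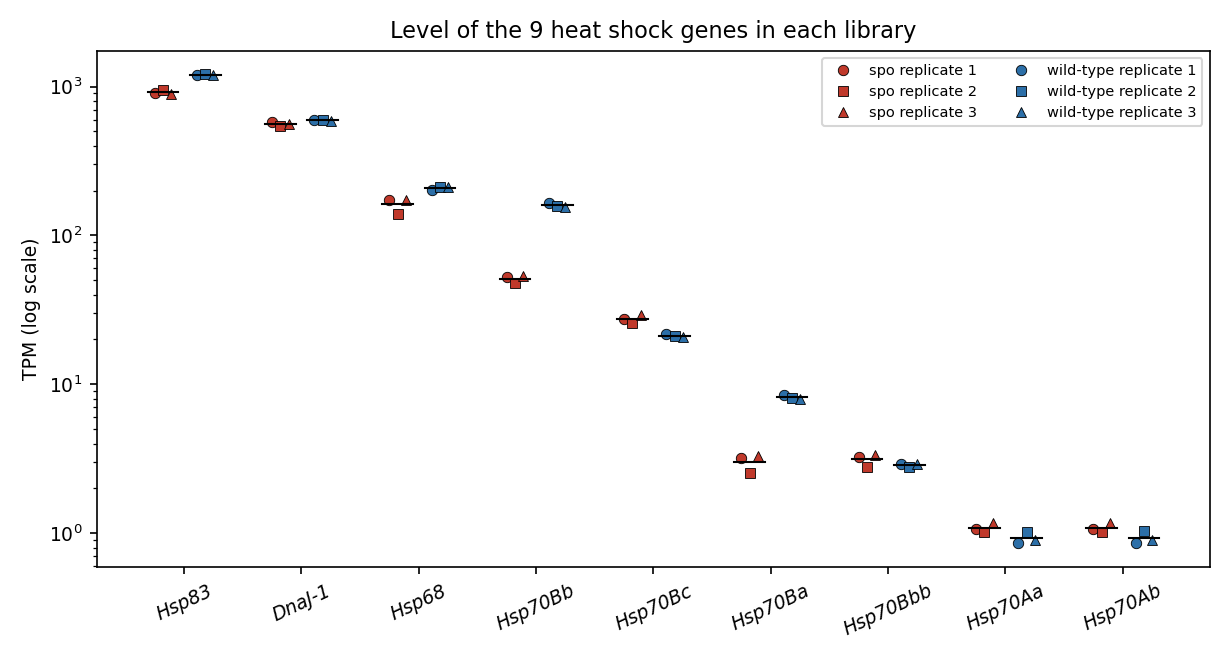
TPM on a log scale for each of the 9 heat shock genes, with spo libraries in red left of the wild-type libraries in blue, 1 symbol per library and a black bar at the mean of 3. Hsp70Bb averaged 51.3 TPM in spo and 159 TPM in wild type, the widest gap in the plot, while the 2 sets of points overlap for Hsp70Bbb and the Hsp70A pair.

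As the deposited values assign reads to the Hsp70 copies, copies differed in the direction of their difference between genotypes. Summed over the 6 copies, Hsp70 RNA stood at 88.6, 81 and 91.6 TPM in spo libraries 1, 2 and 3, against 198, 192 and 189.9 TPM in wild-type libraries 1, 2 and 3. Every spo library lay below every wild-type library, and the means were 87.1 ± 5.44 TPM in spo and 193 ± 4.48 TPM in wild type (SD, n = 3 each). The log2 difference of the sum was -1.14 (SE 0.05, limma adjusted p = 3.36e-06), fitted with the 6 copies replaced by their sum. Assigning a read to one B copy rather than another changes this sum little, as the copies are close in length. Reads dropped because they fit several copies would be missing from the sum, and whether any were dropped is not known.

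Hsp70Bb (FBgn0013278; 3R, 12505793 to 12508139, plus strand, dm6) carried most of the Hsp70 RNA in both genotypes. Its level was 52.6, 47.7 and 53.6 TPM in spo libraries, against 164, 158 and 156 TPM in wild-type libraries. The groups lay far apart, with a log2 difference of -1.62 (SE 0.04, limma adjusted p = 1.05e-06). Of all features tested, 0.938% had a lower difference. Its values rest on 2684, 2970 and 3967 rebuilt reads in spo and 9649, 8803 and 11645 in wild type.

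Hsp70Ba (FBgn0013277; 3R, 12465453 to 12467776, minus strand) fell as well, at a level far below that of Hsp70Bb. It stood at 3.19, 2.53 and 3.3 TPM in spo libraries, against 8.5, 8.06 and 7.98 TPM in wild-type libraries. No spo library reached the lowest wild-type library, at a log2 difference of -1.20 (SE 0.09, limma adjusted p = 3.05e-05). On this scale the change of low genes is understated, and the ratio of the mean TPM, spo over wild type, was 0.368 for Hsp70Ba and 0.322 for Hsp70Bb. The level of Hsp70Bb was 17.2 ± 1.44 times that of Hsp70Ba in spo and 19.5 ± 0.173 times in wild type (SD, n = 3 each).

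Hsp70Bc (FBgn0013279; 3R, 12509076 to 12511461, plus strand) went the other way. It stood at 27.4, 25.9 and 29 TPM in spo libraries, against 21.6, 21.2 and 20.9 TPM in wild-type libraries. The 3 spo libraries lay above the 3 wild-type libraries, with a log2 difference of 0.35 (SE 0.05, limma adjusted p = 0.000444). The level of Hsp70Bb was 1.87 ± 0.0465 times that of Hsp70Bc in spo and 7.5 ± 0.0732 times in wild type (SD, n = 3 each), so this ratio moved by far more than it varied among libraries of a genotype.

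Hsp70Bbb (FBgn0051354; 3R, 12502510 to 12504856, plus strand) lies beside Hsp70Bb and has an annotated length equal to it, 2347 bases. It held few reads, 166, 172 and 248 in spo and 172, 156 and 217 in wild type. Its level was 3.26, 2.77 and 3.35 TPM in spo libraries, against 2.92, 2.79 and 2.91 TPM in wild-type libraries. The groups overlapped, and the log2 difference was 0.09 with a 95% interval of -0.09 to 0.27 (limma adjusted p = 0.357).

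The Hsp70A pair, Hsp70Aa (FBgn0013275; 3R, 11954163 to 11956544, minus strand) and Hsp70Ab (FBgn0013276; 3R, 11958535 to 11960909, plus strand), had the lowest values. Hsp70Ab stood at 1.07, 1.02 and 1.17 TPM in spo libraries, against 0.855, 1.03 and 0.902 TPM in wild-type libraries. With the annotated length of Hsp70Ab, 2375 bases, these values come to 55, 64 and 87.5 rebuilt reads in spo and 51, 58 and 68 in wild type. The groups overlapped, and the log2 difference was 0.11 with a 95% interval of -0.08 to 0.31 (limma adjusted p = 0.268).

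The TPM of Hsp70Ab was 1.001263 times that of Hsp70Aa in all 6 libraries, so the reads of the pair stood in a fixed proportion and the pair counts as 1 measurement. The proportion is equal reads if Hsp70Aa was counted with a length of 2378 bases, which was chosen to make them equal; its length in the annotation used here is 2382 bases. The 4 B copies held whole numbers of reads that differed from one copy to the next. The sources used here do not say whether reads that fit several B copies were dropped or assigned to 1 of them. Each B copy's own level is uncertain to that extent. If such reads were dropped, the summed Hsp70 and the shares and ratios built on it are uncertain as well.

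The make-up of Hsp70 RNA varied little among libraries of a genotype. Hsp70Bb made up 59.4%, 58.9% and 58.5% of the summed TPM in spo libraries, against 82.5%, 82.2% and 82.3% in wild-type libraries. Hsp70Bc made up 30.9%, 32% and 31.7% in spo libraries, against 10.9%, 11% and 11% in wild-type libraries. The 4 copies other than Hsp70Ba and Hsp70Bb, summed after their values were seen and so with no test, stood at 32.7 ± 1.98 TPM in spo and 26 ± 0.289 TPM in wild type (SD, n = 3 each).

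The 4 B copies summed were 40.6, 38.9 and 38.2 times the A pair in spo libraries, against 115, 92.5 and 104 times in wild-type libraries. The groups did not overlap, and the log2 ratio averaged 5.29 ± 0.0442 in spo and 6.69 ± 0.158 in wild type (SD, n = 3 each). An exact two-sided permutation test over libraries gave p = 0.1, the smallest value that 3 libraries against 3 allow.

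**Figure D2:**
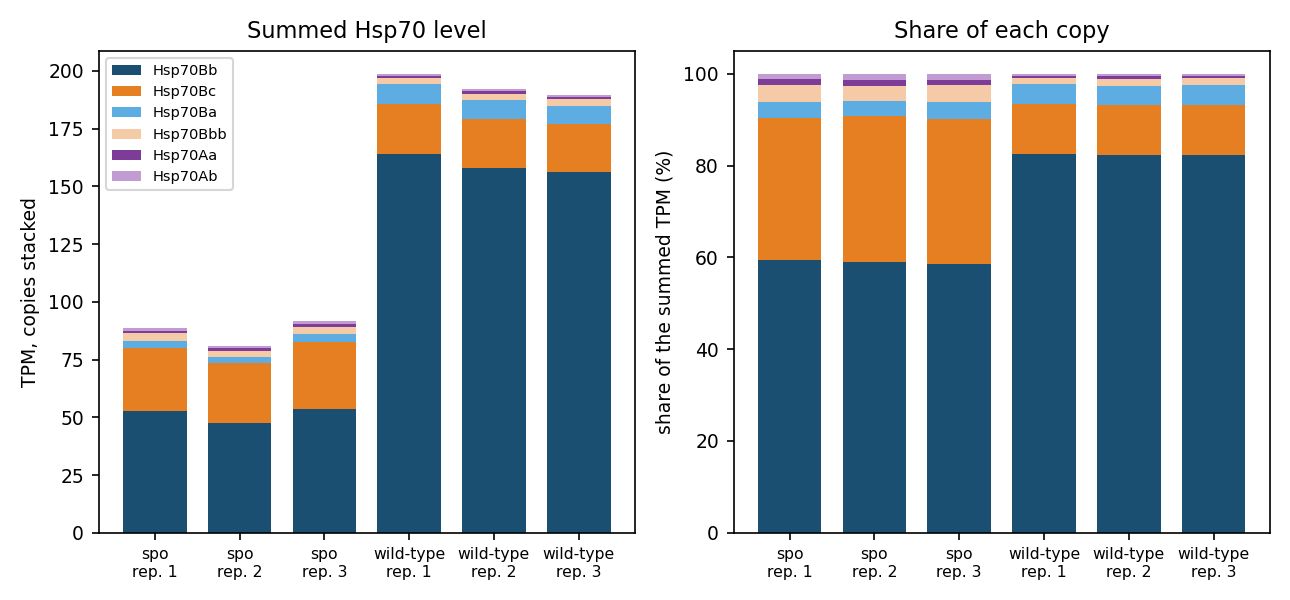
Left, TPM of the 6 Hsp70 copies stacked for each library; right, the same as percent of their sum, spo libraries left of wild-type libraries. The sum was 81 to 91.6 TPM in spo and 189.9 to 198 TPM in wild type, and the share of Hsp70Bc was near 31.5% in spo and 11% in wild type.

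Genes beside the copies were examined for the same pattern. CG5608 begins 155 bases beyond the downstream end of Hsp70Ba on the same strand. It moved opposite to Hsp70Ba, at 13.9, 15.8 and 14.9 TPM in spo libraries, against 7.01, 7.3 and 6.95 TPM in wild-type libraries (log2 difference 0.97, SE 0.06, limma adjusted p = 1.28e-05). The alphagamma element CR32865, a noncoding RNA annotated between Hsp70Ba and Hsp70Bbb, stood at 13.3, 16.8 and 13.5 TPM in spo libraries, against 18.5, 18.4 and 13.9 TPM in wild-type libraries. Its groups overlapped, with a log2 difference of -0.20 and a 95% interval of -0.50 to 0.10. Octbeta3R, 109 bases from Hsp70Bc on the other strand, averaged 0.282 TPM in spo and 0.221 TPM in wild type. It lay under the filter of 1 TPM and was not tested. At the A pair, CG3281 overlaps Hsp70Ab by 27 bases on the other strand and stood at 25.9, 25.5 and 24.5 TPM in spo libraries, against 21.2, 22.2 and 21.2 TPM in wild-type libraries (log2 difference 0.22, SE 0.04, limma adjusted p = 0.00162). CG31211 and aurA, which flank the pair, differed by 0.06 (95% interval 0.01 to 0.11) and 0.14 (0.06 to 0.22) on the log2 scale. The call of CG31211 was lost in 10 refits, among them those without any 1 library other than spo replicate 1 (adjusted p 0.0662 to 0.132). Whether counting used the strand is not given in the sources, so reads in an overlap may not be told apart.

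**Figure D3:**
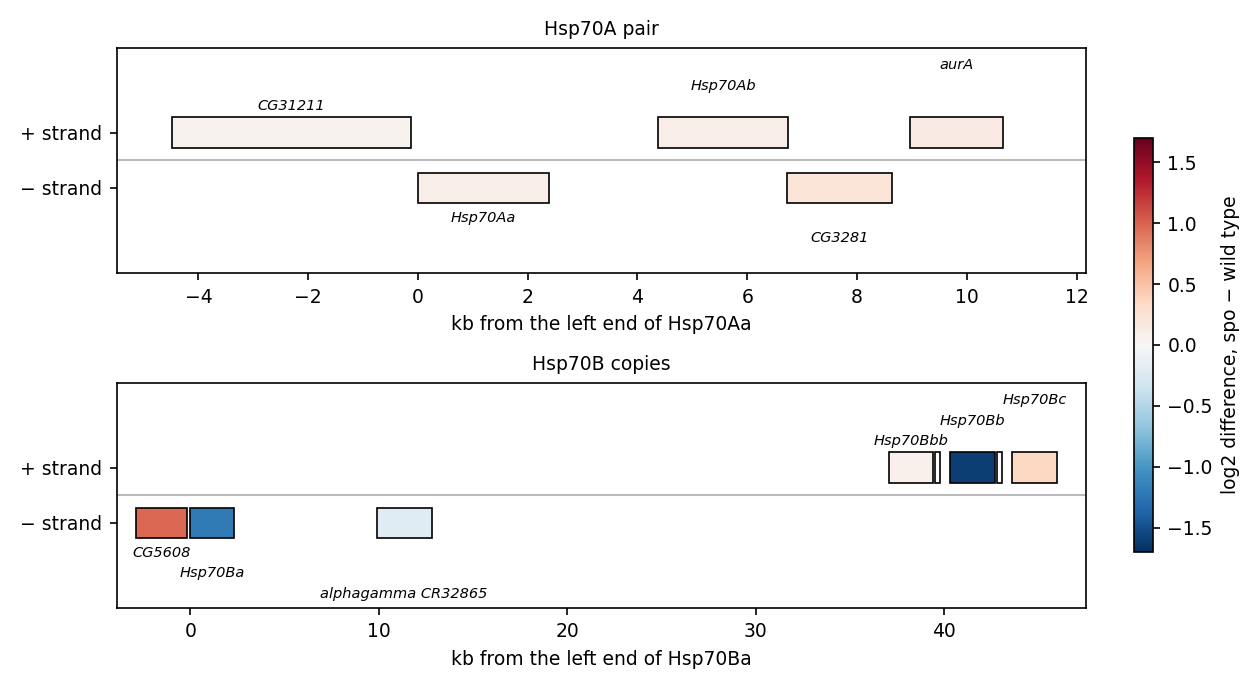
Genes around the Hsp70A pair (top) and the Hsp70B copies (bottom), drawn to scale by strand against distance in kb and coloured by the log2 difference, spo minus wild type, with white for the pseudogenes CR46154 and CR46155, which were not analysed here. Hsp70Bb (-1.62) lies between Hsp70Bbb (0.09) and Hsp70Bc (0.35), and Hsp70Ba (-1.20) lies beside CG5608 (0.97). Octbeta3R, the neighbour of Hsp70Bc, is not drawn.

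Hsp68 (FBgn0001230; 3R, 24055080 to 24057310, minus strand), an inducible Hsp70 relative outside both clusters, was lower in spo. It stood at 173, 140.3 and 174 TPM in spo libraries, against 202, 210.3 and 212 TPM in wild-type libraries. All 3 spo libraries lay below wild type, with spo library 2 lowest, which gave a log2 difference of -0.36 (SE 0.08, limma adjusted p = 0.00591). Its level was 1.86 ± 0.115 times the summed Hsp70 in spo and 1.08 ± 0.0525 times in wild type (SD, n = 3 each). CG6000 and the noncoding CR44097 are annotated over the same bases on the same strand, so their reads may not be told apart. They share 13 bases with the end of Hsp68 on the other strand and had a log2 difference of -0.26 each, with a 95% interval of -0.46 to -0.05 for CG6000 and of -0.44 to -0.07 for CR44097. The groups overlapped for CG6000, and both calls were lost without spo replicate 2 or 3 or without wild-type replicate 1 or 2 (adjusted p 0.0567 to 0.112). On the sides of Hsp68, SMC1 had a log2 difference of -0.16 (limma adjusted p = 0.000799) and Pisd one of 0.10 (adjusted p = 0.0297). The call of Pisd was lost without spo replicate 1 or 3 or wild-type replicate 1 or 3 (adjusted p 0.0629 to 0.0979).

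Hsp83 (FBgn0001233; 3L, 3192969 to 3197059, plus strand) had the highest level of the 9 genes. It stood at 908, 951 and 894 TPM in spo libraries, against 1200.9, 1209.5 and 1197.2 TPM in wild-type libraries. The groups were clearly apart, with a log2 difference of -0.39 (SE 0.03, limma adjusted p = 2.42e-05). Of all features tested, 10.4% had a lower difference. Its neighbour CG14965, on the other strand, differed by 0.32 in the opposite direction (limma adjusted p = 0.000109), and CG14966, which overlaps its end by 15 bases, by 0.03 (adjusted p = 0.602).

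Maternally loaded transcripts were followed with a list of 17 genes. Of 16 tested, 14 rose and 0 fell, but 5 of these (bcd, swa, osk, tor and twe) lay below 1 TPM in all wild-type libraries and passed the filter only through the spo libraries, where they are high. Of the other 11, 9 rose and 0 fell, where 33.9% of all features tested rose and 27.9% fell. Among these 9 is wisp, at 1.24, 0.963 and 1.12 TPM in wild-type libraries 1, 2 and 3. It too reached 1 TPM in 3 libraries only with the help of the spo libraries, where it is high. Without spo replicate 2, 11 of the 16 passed the filter and 8 of them rose. The 17 genes summed to between 939.9 and 1076.4 TPM in spo libraries and between 485 and 496 TPM in wild-type libraries. wisp, a poly(A) polymerase of egg activation, stood at 31.8 ± 3.64 TPM in spo and 1.11 ± 0.14 TPM in wild type (SD, n = 3 each; limma adjusted p = 8.51e-07). nos, which shares with Hsp83 clearance through the RNA-binding protein Smaug, stood at 1.68 ± 0.258 TPM in spo and 1.75 ± 0.382 TPM in wild type (adjusted p = 0.832). The smg gene, which encodes Smaug, rose to 159 ± 20.7 TPM in spo, against 31.3 ± 0.287 TPM in wild type (adjusted p = 2.28e-06). The part of maternal RNA in the levels of the heat shock genes was not tested.

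DnaJ-1 (FBgn0263106; 3L, 5750029 to 5752189, minus strand), an Hsp40 partner of Hsp70, changed least among the genes that passed. It stood at 578, 547 and 558 TPM in spo libraries, against 598, 595 and 589 TPM in wild-type libraries. The groups did not overlap, but the log2 difference was only -0.08 (SE 0.02, limma adjusted p = 0.0194). The call was lost without spo replicate 3 (adjusted p = 0.0563), wild-type replicate 1 (0.0663) or wild-type replicate 2 (0.0643). Its level was 6.46 ± 0.334 times the summed Hsp70 in spo and 3.07 ± 0.0517 times in wild type (SD, n = 3 each).

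Over the 9 genes, spo and wild-type libraries did not overlap for 5 lower genes and 1 higher gene, and overlapped for 3. Among all features tested, 30.8% were lower and 37.6% were higher without overlap. Within the mutants, spo library 2 was the lowest of the 3 for 8 of the 9 genes, the exception being Hsp83, where it was the highest. Over all features tested, it was the lowest for 36.2%. The Hsp70A pair counts in this as 1 measurement. Without that library the number of genes called stayed at 5 lower and 1 higher.

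The authors' deposited table gave log2 fold changes of -1.65 for Hsp70Bb, -1.46 for Hsp70Ba, 0.35 for Hsp70Bc, -0.41 for Hsp83 and -0.38 for Hsp68. In the authors' deposited table DnaJ-1 had a log2 fold change of -0.10 and a false discovery rate of 0.0688, so 4 of the 9 genes were lower and 1 was higher there. The authors' deposited table has 21.4% of its features lower and 21.6% higher at a false discovery rate under 0.05.

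**Figure D4:**
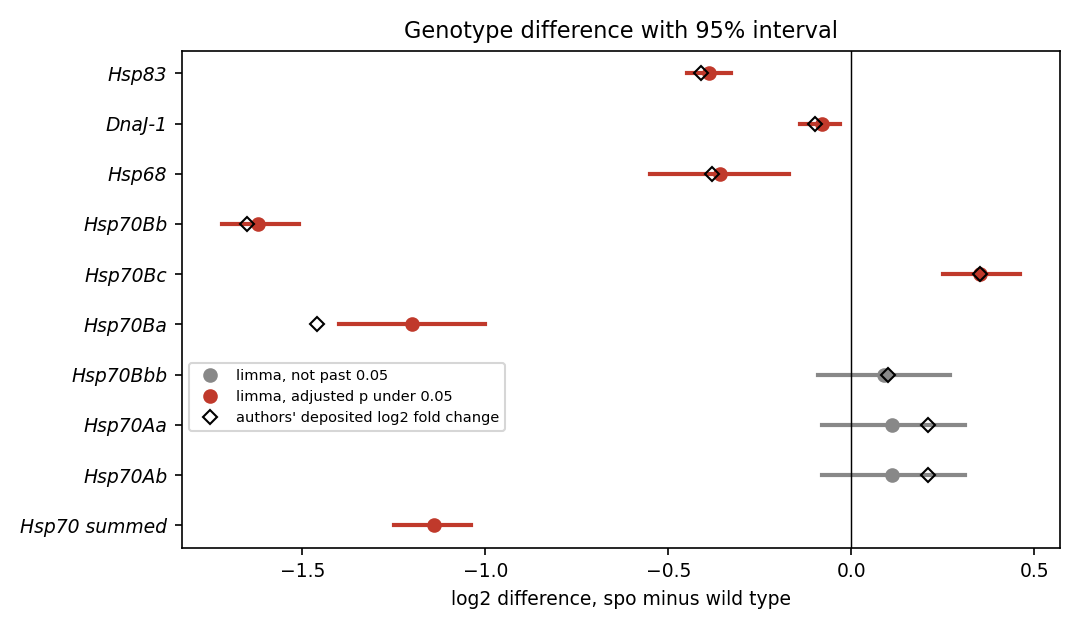
Log2 difference, spo minus wild type, of log2(TPM + 1) for each gene and for the 6 Hsp70 copies summed, with the 95% interval of the limma fit; diamonds are the authors' deposited log2 fold changes. Intervals of Hsp70Bbb and the Hsp70A pair cross 0, and Hsp70Bc is the one gene of the 9 above 0 beyond its interval.

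The partners of these chaperones moved in several directions. The counts in this and the following lists stand beside 27.9% lower and 33.9% higher over all features tested. Hsc70Cb, CHIP, Hsc70-3 and Gp93 each stand in more than 1 list, so the counts are not fully separate. Of the 5 tested members of the constitutive Hsp70 family, 2 fell, 1 rose and 2 did not pass, with a median log2 difference of -0.09, against 0.02 over all features tested. Hsc70-4, the main cytosolic Hsp70 without heat, stood at 3115.5 ± 65.4 TPM in spo and 3179.7 ± 51.8 TPM in wild type (SD, n = 3 each; limma adjusted p = 0.364). It was 35.9 ± 1.58 times the summed heat-inducible Hsp70 in spo and 16.5 ± 0.635 times in wild type. Hsc70-3, the Hsp70 of the endoplasmic reticulum, fell to 1454.0 ± 40.0 TPM in spo, against 2095.6 ± 10.6 TPM in wild type (adjusted p = 5.87e-06).

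Of 7 tested partners that act on the Hsp70 cycle or on its substrates, 5 rose and 2 fell, with a median log2 difference of 0.16. Across all features tested, 33.9% were higher and 27.9% lower. The 5 include HIP and HIP-R, which may not be separate measurements. CHIP, a ubiquitin ligase that binds Hsp70 and Hsp90 and is now called STUB1, rose to 33 ± 3.95 TPM in spo, against 12.9 ± 0.833 TPM in wild type (log2 difference 1.29, SE 0.09, limma adjusted p = 2.25e-05). HIP and HIP-R, a pair of Hsp70-interacting genes close in sequence whose reads may not be told apart, rose by 0.86 and 0.78 on the log2 scale. stv, the BAG-domain partner of Hsp70 that is induced with it by heat, fell to 28.3 ± 2.12 TPM in spo, against 35.1 ± 0.141 TPM in wild type (adjusted p = 0.00179). Hsc70Cb, the Hsp110 gene, had a log2 difference of 0.09 (adjusted p = 0.00633), a call that was lost with upper-quartile factors.

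The other J-domain genes split, with 10 of 20 tested falling and 8 rising. CG7133 rose to 49.1 ± 1.31 TPM in spo, against 35.1 ± 0.849 TPM in wild type (SD, n = 3 each; limma adjusted p = 2.29e-05), and Tpr2 to 246 ± 8.76 TPM, against 202 ± 2.54 TPM. wus, a membrane J-domain protein of tracheal development, fell to 17.5 ± 0.784 TPM in spo, against 25.3 ± 1.34 TPM in wild type (adjusted p = 0.000144). Among cytosolic J-domain relatives, Droj2 stood at 434 ± 0.897 TPM in spo and 438 ± 2.41 TPM in wild type (adjusted p = 0.526), and CG5001 fell to 4.72 ± 0.708 TPM, against 7.24 ± 0.438 TPM (adjusted p = 0.00247).

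Of 18 tested Hsp90 relatives and co-chaperones, 5 fell, 3 rose and 10 did not pass, with a median log2 difference of -0.02. CHIP, described above, is also in this list and is 1 of the 3 that rose (log2 difference 1.29, limma adjusted p = 2.25e-05). Hop, which joins Hsp70 to Hsp90, fell to 224 ± 2.57 TPM in spo, against 287 ± 4.05 TPM in wild type (SD, n = 3 each; limma adjusted p = 9.8e-06). nudC fell to 69.9 ± 0.842 TPM, against 92.5 ± 0.49 TPM (adjusted p = 7.57e-06), and Gp93, the Hsp90 of the endoplasmic reticulum, to 1169.0 ± 33.7 TPM, against 1416.2 ± 20.1 TPM (adjusted p = 0.00011). Cdc37, which brings kinases to Hsp90, stood at 114 ± 2.25 TPM in spo and 111 ± 1.55 TPM in wild type (adjusted p = 0.198).

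Chaperonins are ring-shaped folding machines. All 9 tested members fell, where 27.9% of all features tested were lower. They were the 8 subunits of the cytosolic ring and mitochondrial Hsp60, with log2 differences from -0.23 to -0.14 and a median of -0.18. They were also called lower with every other scaling tried. Cct5 stood at 279.7 ± 7.99 TPM in spo and 328 ± 4.21 TPM in wild type (SD, n = 3 each; limma adjusted p = 0.000196). Of 9 tested small heat shock genes, 4 fell and 0 rose, with Hsp27 at 364 ± 23.9 TPM in spo and 546 ± 11.7 TPM in wild type (adjusted p = 4.72e-05). With median-of-ratios or upper-quartile factors 8 of these 9 were called lower, and with the replicate number as a block 7. Of all 10019 features tested, 3074 were lower with median-of-ratios factors, 3270 with upper-quartile factors and 2745 with the block. The main fit had 2792 lower. Among the 9 small heat shock genes, Hsp22 and Hsp67Bb kept a nearly fixed proportion and may not be separate measurements. Hsp22 stood at 201, 189 and 187 TPM in spo libraries and 209, 218 and 197 TPM in wild-type libraries. Hsp67Bb stood at 181, 170.5 and 168 TPM in spo libraries and 188, 196 and 177 TPM in wild-type libraries.

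Of 14 tested genes that act on heat shock transcription, 4 fell, 4 rose and 6 did not pass. Hsf, the transcription factor that switches these genes on, fell to 107 ± 1.69 TPM in spo, against 124 ± 1.37 TPM in wild type (SD, n = 3 each; limma adjusted p = 0.00013). Hsromega, a noncoding RNA induced by heat, fell to 21.6 ± 1.58 TPM, against 27 ± 1.39 TPM (adjusted p = 0.0032). Hexim, an inhibitor of the elongation factor P-TEFb, rose to 53.8 ± 2.33 TPM, against 35.2 ± 0.969 TPM (adjusted p = 1.98e-05), and Parp, needed for the loosening of chromatin at Hsp70, to 100.4 ± 10.3 TPM, against 65.4 ± 3.44 TPM (adjusted p = 0.000319). Trl, the GAGA factor of Hsp70 promoters, stood at 171 ± 4.63 TPM in spo and 170.3 ± 3.04 TPM in wild type (adjusted p = 0.789).

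Lists of other stress responses were mixed. Of 13 tested endoplasmic reticulum genes, 8 fell and 2 rose. Pdi, a protein disulfide isomerase, fell to 1649.9 ± 70.8 TPM in spo, against 2854.0 ± 41.6 TPM in wild type (SD, n = 3 each; limma adjusted p = 4.25e-06). Of 13 tested genes of other stress responses, 4 rose, 4 fell and 5 did not pass. Sod, the cytosolic superoxide dismutase now called Sod1, rose to 147 ± 5.7 TPM, against 77.5 ± 3.75 TPM (adjusted p = 5.02e-06), and Cat, catalase, fell to 105 ± 0.569 TPM, against 153 ± 1.13 TPM (adjusted p = 1.79e-06).

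**Figure D5:**
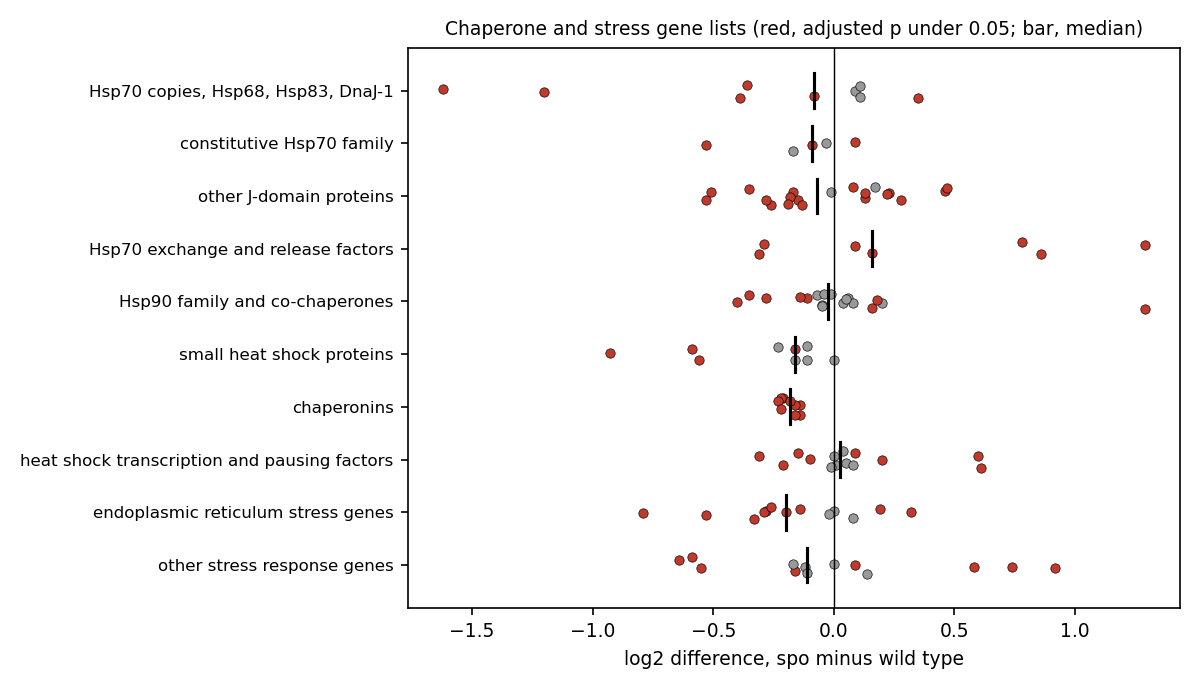
Log2 difference, spo minus wild type, of each tested gene in the 9 heat shock genes (top row) and in 9 lists of chaperone and stress genes, red where the limma adjusted p was below 0.05, with a bar at the median. Hsp70Bb and Hsp70Ba lie left of every gene in the lists, and the 9 chaperonins lie between -0.23 and -0.14.

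Features with the most similar profile over the 6 libraries were sought by the Euclidean distance between log2(TPM + 1) values centred on each feature's mean, among 8074 features with a mean of at least 5 TPM. For summed Hsp70 they were CG30265 (distance 0.121), CG12009 (0.131) and CG11652 (0.15), all lower in spo with log2 differences from -1.20 to -1.12. CG11652 stood at 85.9, 78.1 and 82.6 TPM in spo libraries, against 181, 188 and 194 TPM in wild-type libraries. Hsp68 was nearest to CG12896 (0.0998), Trax (0.118) and alpha-Est7 (0.118), in each of which spo library 2 was the lowest of all. Hsp83 was nearest to CG5276 (0.0298), sens-2 (0.0325) and CG11267 (0.0327), and in all 3 spo library 2 was the highest of the mutants. DnaJ-1 was nearest to Sym (0.0284), Syt4 (0.0296) and msk (0.0307). With 6 libraries in 2 groups, this likeness rests mainly on the genotype difference. The features were chosen for closeness to each profile, so a shared place of spo library 2 largely follows from that choice.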

How the data were processed

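The authors deposited TPM per feature for 6 libraries. They also deposited, per the file headers, their genotype comparison as log2 values (fold change and average CPM), a likelihood ratio as a score, the p-value and its false discovery rate. Tools in the submitters' processing notes are edgeR, Subread with featureCounts, STAR 2.5.3a and FastQC 0.11.2, and the build is dm6. Gene positions are from the Ensembl annotation of dm6. Its exon lengths gave whole reads (tolerance 0.02) for 94.9% of 14969 matched features, from which reads were rebuilt. A single read in a gene of 1 kb was worth 0.0315 to 0.046 TPM.

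limma 3.58.1 in R 4.3.3, with an intensity trend, was fitted to log2(TPM + 1), a pseudocount of 1, with genotype as the term. Features with at least 1 TPM in 3 libraries were tested, except for spo, which was fitted with all 15135 features and no filter. p-values were adjusted by Benjamini-Hochberg over the 10019 that passed (for spo, over the 15135) and measure the spread between these libraries, which may be technical, as the design text calls the libraries independent without saying whether embryos came from separate collections. A positive difference is higher in spo. Sequences were not used here.

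The 9 genes and the lists were chosen with earlier results of these data known. Named genes are the 9, spo, their annotated neighbours, from each list up to 4 genes past the threshold, by smallest p, list members that did not pass, and the 3 nearest profiles. stv, smg, CG5001, Hsromega, elav, Mef2, bcd, osk and tor, which passed, were named outside this rule after their values were seen. Of the written list members, HspBP1, Hsp60D, MtnB, Cp15 and dj could not be matched to the table. Alternatives were other pseudocounts, filters, scalings, weights, voom on rebuilt reads, a replicate block, a test against a log2 change of 0.5 and leaving out each library.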

Additional observations from a re-analysis of the deposited data

How the results depend on the processing

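Of the 9 genes, Hsp70Bb and Hsp70Ba kept their call and direction in all 15 refits, and so did the 6 copies summed (log2 difference -1.18 to -1.09). Hsp70Aa, Hsp70Ab and Hsp70Bbb passed in none of theirs and stayed between 0.05 and 0.22. Tested against a log2 change of 0.5, which asks for a larger change, Hsp70Bc (0.35), Hsp68 (-0.36), Hsp83 (-0.39) and DnaJ-1 (-0.08) were not called. The 9 genes then held 2 lower and 0 higher. Over all 10019 features tested, 409 were lower and 461 higher by this stricter test. All lists together held 3 lower and 15 higher. The lists include the maternal transcripts, some of which passed the filter only through the spo libraries. Without 1 library, DnaJ-1 ran from -0.10 to -0.06. The spo gene ran from -0.37 to -0.21 without 1 library, past the threshold only without spo replicate 1, and was not called with a pseudocount of 0.1 (-0.69), against a change of 0.5 (-0.29) or with library weights (-0.29); the cause was not tested, but it held 24 to 59 reads per library. The filter of 5 TPM does not test Hsp70Aa, Hsp70Ab or Hsp70Bbb. The ratio of B to A copies differed by -1.48 to -1.32 on the log2 scale without 1 library. Of all calls, 3393 were higher and 2792 lower in spo, against 2926 and 3270 with upper-quartile factors. Of 72 other genes called, 0 turned direction in 990 refits that leave aside the test against 0.5, and 40 calls were lost, 10 of CG31211, 8 of Pisd, 6 of CG6000, 6 of Syt4 and 5 of CR44097. With the replicate number as a block (replicate block), 6086 features were called, against 6185, and Hsp70Bb differed by -1.62; the number changed no call of the 9 genes. Same-numbered libraries deviated with correlations of -0.0275, 0.045 and 0.129, and the numbers were therefore not used as a pairing.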
